A study of Homo sapiens with 12 samples.

Results

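The 10 genes described here code for 7 subunits of the AP-1 transcription factor (FOS, FOSB, FOSL1, FOSL2, JUN, JUNB and JUND), for 2 early growth response factors (EGR1 and EGR3) and for PHLDA1, a pleckstrin homology-like domain protein. They were chosen by symbol from a table of 60664 genes, each matched 1 row, and all 10 had enough reads to be among the 17544 genes tested. The measurements came from the human cell line MDA-MB-231, grown from a triple-negative breast cancer (one without hormone receptors or amplified HER2), with a wild-type genotype per the labels. Cells were moved for 24 h into medium of pH 6.4, into medium labelled pH 6.9, or into medium of pH 7.4, with 4 libraries per medium that the labels number as repeats 1 to 4. The protocol and the design text name the intermediate medium 6.7 where the sample labels have 6.9, and the labels' value is used here. All groups had first grown at pH 7.4, and they shared the cell line, the time and the genotype, so each result describes 1 line at 1 time point. The labels do not say whether repeats were separate cultures, so p-values measure only the spread between these libraries.

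Total counts were between 21060767 and 50643233 per library, and the 10 genes together took 0.0948% to 0.1815% of them. Repeat 1 at pH 7.4 held 17841 genes with a count and repeat 2 at pH 6.9 held 21628, the fewest of the 12 libraries. The expression matched the labelled line in that VIM, CD44, AXL and CAV1, markers of its mesenchymal state, each averaged at least 671 CPM (counts scaled to a common library total) in every medium, while the hormone receptor genes ESR1 and PGR averaged at most 0.0753 CPM. Against the expectation for each group of markers, mesenchymal SPARC averaged only 1.82 to 2.92 CPM over the media. Luminal or receptor genes that were expressed were KRT18 at 400 to 604 CPM, ERBB2 at 74.4 to 87.6 CPM, EPCAM at 17.47 to 22.01 CPM and GATA3 at 10.6 to 15.5 CPM. Of 9 marker genes of leukocytes, endothelium and fibroblasts, 5 were tested, 2 were lower at pH 6.4 than at pH 7.4 (PDGFRB and LUM) and none was higher, beside 14.7% of all tested genes lower and 15.6% higher. Their summed level was 16.4 to 26.7 CPM in the pH 6.4 libraries and 34.1 to 40.8 CPM in the pH 7.4 libraries. Of the 9, the fibroblast markers PDGFRB and LUM averaged 10.7 to 21.7 CPM and 1.94 to 7.43 CPM over the media. The endothelial marker PECAM1 averaged 6.90 to 7.88 CPM, also against the expectation for this line. The T cell gene CD3E was at 0 in every library, and DCN and CDH5, which also mark fibroblasts and endothelium, averaged at most 0.0311 CPM in each medium. In RNA from whole cultures, fewer cells of a type and less RNA per cell cannot be told apart.

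AP-1 is a dimer of basic leucine zipper proteins, in which a FOS-family protein pairs with a JUN-family protein, or JUN-family proteins pair among themselves. It binds the motif TGANTCA and is known in breast cancer cells for driving genes of migration, invasion and growth factor signalling. Many of its subunit genes, and the zinc finger factors EGR1 and EGR3, are immediate early genes, switched on within minutes when growth factors activate the MAP kinases ERK, JNK or p38 and the ternary complex of serum response factor with ETS partners. FOSL1, whose protein is also called FRA-1, and PHLDA1 follow sustained ERK signalling, and FOSL1 protein is abundant in mesenchymal breast cancer lines.

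RefSeq (GRCh38.p14) gave the 250 bases before its annotated start for 8 of the 10 genes. By the GENCODE annotation, which gives the coordinates printed for the genes, some of these windows lie inside the gene, namely all 250 bases for FOSL2, JUN and PHLDA1, 54 for FOS and 1 for FOSB. The sequence is shown for EGR1, which passed the test at pH 6.4, and for JUNB and JUND, which missed the threshold there and passed with the repeat number as a block, since their windows lie wholly before the gene in both annotations. Capitals mark the motifs searched on both strands, namely the CArG box that serum response factor binds, the cyclic AMP response core TGACGT, which reads ACGTCA on the opposite strand, the AP-1 motif TGANTCA, the related TGANNTCA and the TATAAA box. EGR1 (chr5:138465229-138465478, plus strand), JUNB (chr19:12791236-12791485, plus strand) and JUND (chr19:18281623-18281872, minus strand) read as follows, each 5′ to 3′ on its gene's strand.
EGR1: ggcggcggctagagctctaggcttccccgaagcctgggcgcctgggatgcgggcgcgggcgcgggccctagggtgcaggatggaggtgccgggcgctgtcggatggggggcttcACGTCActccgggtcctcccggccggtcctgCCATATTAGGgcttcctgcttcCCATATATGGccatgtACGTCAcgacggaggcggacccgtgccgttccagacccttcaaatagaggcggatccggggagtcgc
JUNB: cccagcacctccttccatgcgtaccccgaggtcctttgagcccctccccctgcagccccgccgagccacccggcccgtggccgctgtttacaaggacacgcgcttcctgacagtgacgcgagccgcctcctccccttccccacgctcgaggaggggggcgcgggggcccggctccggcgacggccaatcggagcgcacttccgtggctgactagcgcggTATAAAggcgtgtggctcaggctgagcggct
JUND: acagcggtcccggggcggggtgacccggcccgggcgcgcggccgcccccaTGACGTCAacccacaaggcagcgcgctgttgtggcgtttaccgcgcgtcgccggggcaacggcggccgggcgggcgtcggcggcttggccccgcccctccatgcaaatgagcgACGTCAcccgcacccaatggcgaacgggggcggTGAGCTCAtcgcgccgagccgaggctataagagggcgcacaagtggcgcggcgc

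In this window EGR1 held CArG boxes 105 to 96 and 83 to 74 bases before its start and the TGACGT core 136 to 131 and 67 to 62 bases before it. EGR1 was the 1 gene of the 8 with a CArG box in the window, which 1.16% of 35116 RefSeq upstream windows of the same length held. Bases beyond the window were not searched, so a gene without a motif here can hold one farther upstream. JUND held TGACGTCA 200 to 193 bases before its start, and JUNB held TATAAA 31 to 26 bases before its own. The TGACGT core was present in 5 of the 8 genes (FOS, FOSB, FOSL2, JUND and EGR1), against 7.1% of all windows. TGANNTCA, which overlaps TGACGT where a window reads TGACGTCA, was present in JUN and JUND, against 10.1% of windows, and TATAAA in FOS, FOSB and JUNB, against 10.7%. The motif TGANTCA was in none of the 8 (6.57% of windows). The EGR motif GCGNGGGCG and CCAAT were also searched and are not in capitals. EGR1 held the first (8.41% of windows), and JUN, JUNB and JUND held the second (32%).

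Levels of different genes were compared as CPM per kb of exon. At pH 7.4 FOSL1 stood first with 95.9 ± 23.4, followed by JUND with 58.7 ± 25.9, PHLDA1 with 48.7 ± 4.88, JUN with 36.5 ± 6.1, FOSL2 with 25.8 ± 2.51, JUNB with 20.2 ± 3.15 and FOS with 15.6 ± 4.22 CPM per kb (SD, n = 4). EGR1, at 3.07 ± 1.04, FOSB, at 0.68 ± 0.198, and EGR3, at 0.0227 ± 0.0152 CPM per kb, followed far below (SD, n = 4). Along this order each pair of neighbours from FOSL1 to JUN and from FOSL2 to FOS had overlapping libraries, while JUN and FOSL2, FOS and EGR1, EGR1 and FOSB, and FOSB and EGR3 did not overlap. At pH 6.9 FOSL1, with 132 ± 22.1 CPM per kb, no longer overlapped the next gene, which was PHLDA1 with 64.7 ± 4.44 (SD, n = 4). At pH 6.4 FOSL1 had 207 ± 51.4, PHLDA1 93 ± 14.3 and JUND 76.3 ± 34.3 CPM per kb (SD, n = 4). The libraries of PHLDA1 and JUND overlapped there, and so did those of FOS, with 10 ± 5.15, and EGR1, with 8.1 ± 2.52 CPM per kb (SD, n = 4). The pseudogene FOSL1P1, a copy that could share reads, had 36 counts over all libraries, beside 128138 for FOSL1.

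**Figure D1:**
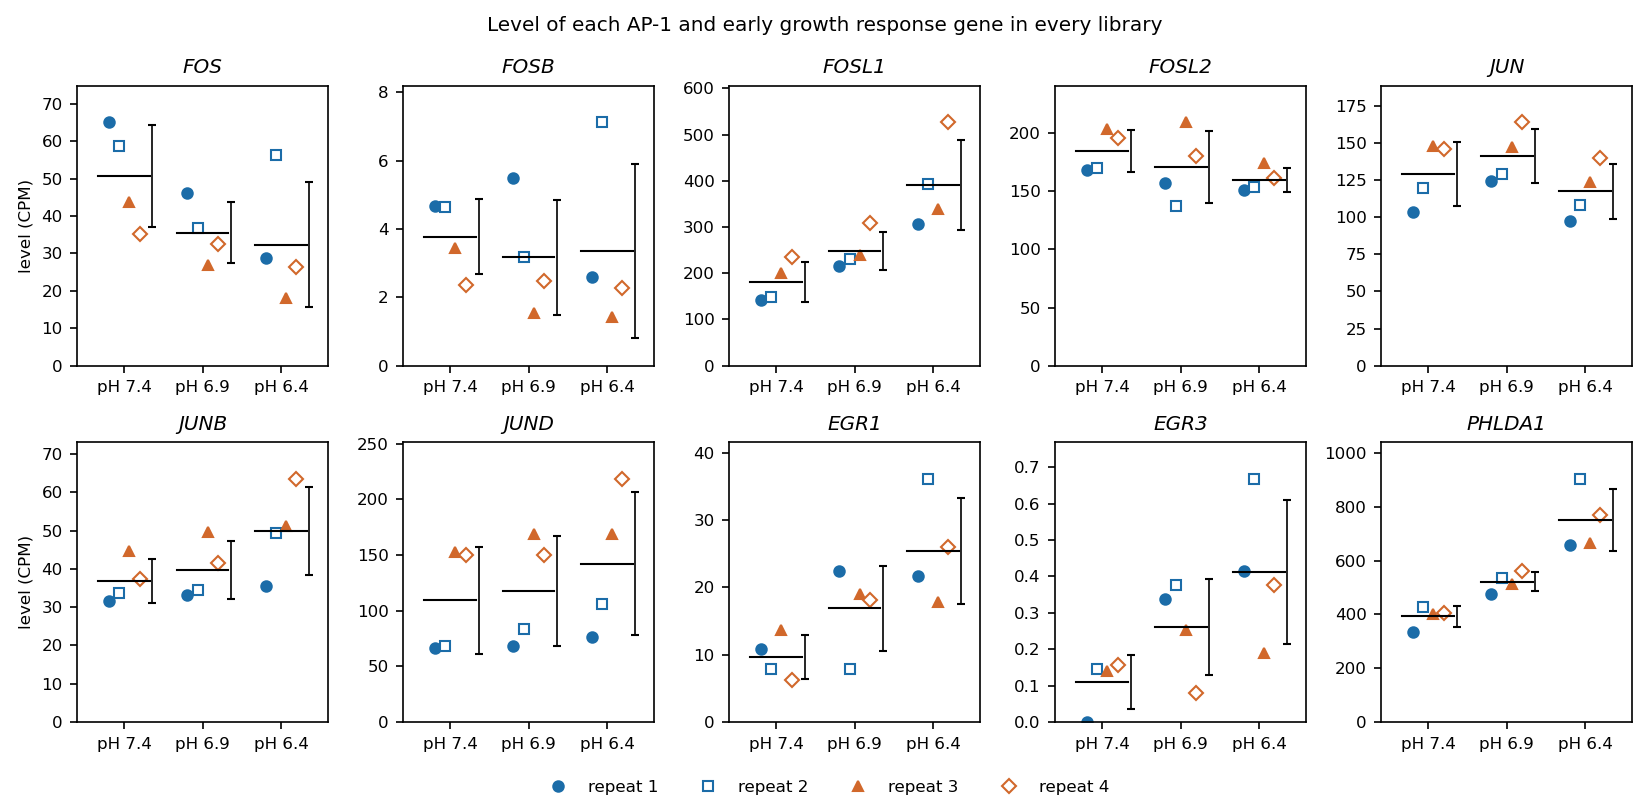
Level (CPM, linear axis from 0) of each of the 10 genes in every library, by medium from pH 7.4 to pH 6.4, with a marker per repeat number, a bar at the mean and the SD beside it (n = 4 libraries per medium). FOSL1, EGR1, EGR3 and PHLDA1 had every pH 6.4 library above every pH 7.4 library, whereas JUND split by repeat number in each medium.

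At pH 6.4 FOSL1, EGR1 and PHLDA1 rose 2.16-fold, 2.66-fold and 1.91-fold over pH 7.4. None of the 10 genes passed as lower in this fit, while FOS and FOSL2 did with the repeat number as a block. FOS, the founding member of its family, averaged 32.4 CPM at pH 6.4 and 50.6 CPM at pH 7.4 and did not pass the test, nor did JUN. This comparison asked what 24 h in the most acid medium did to each gene. The 3 higher genes of 10 stand beside 15.6% of all tested genes called higher and 14.7% called lower, 30.3% in all, by edgeR's quasi-likelihood test at a Benjamini-Hochberg adjusted p under 0.05. Scaled by library size alone, the share of higher genes among all calls was 40.4% in place of 51.4%. The libraries of pH 6.4 and pH 7.4 did not overlap for 4 of the 10 genes, all higher at pH 6.4 (FOSL1, EGR1, EGR3 and PHLDA1), where 14.4% of all genes were so. EGR3 met the filter on low counts only through acid libraries, where it was higher, so it adds no support to that count. The median log2 change was 0.41 over the 10 genes, with EGR3 included, and -0.0008 over all tested genes. With that block, which the correlations between same-numbered libraries allow here although repeat 1 correlated more with another number, 5 of the 10 genes were higher and 2 lower, against 21.4% and 20.2% of all genes.

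**Figure D2:**
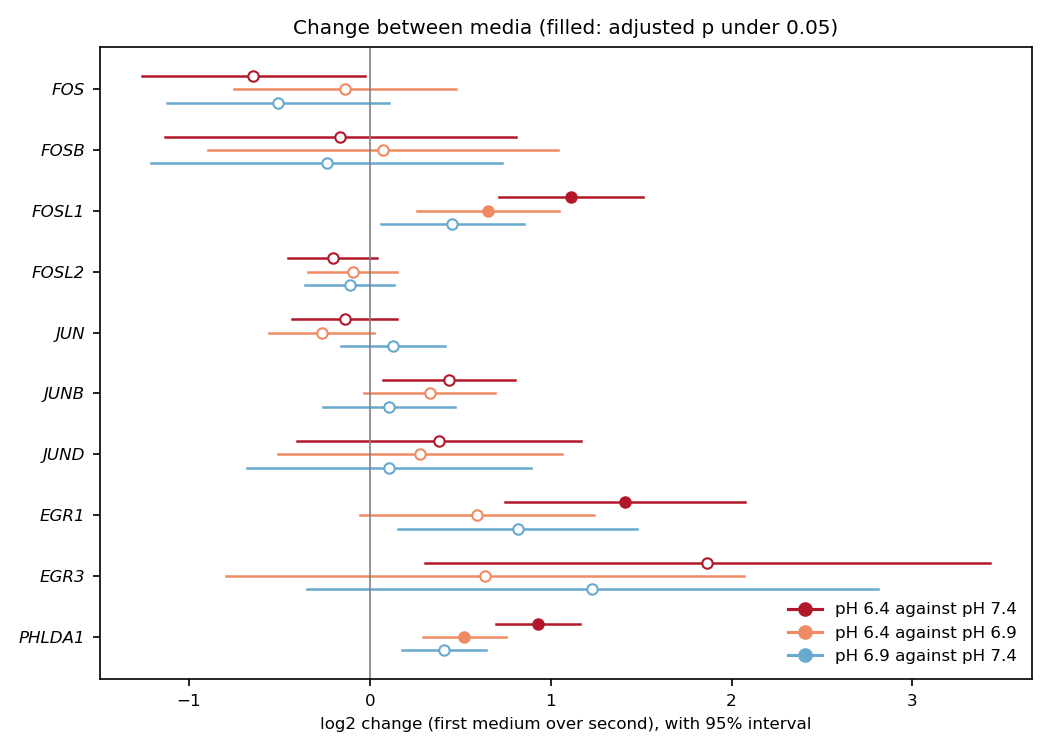
Log2 change of each gene between media (horizontal axis, log2 scale, first medium over second) with its 95% interval from edgeR, for the 3 pairs of media and with 4 libraries per medium. Filled points passed at an adjusted p under 0.05, namely FOSL1, EGR1 and PHLDA1 for pH 6.4 against pH 7.4 and FOSL1 and PHLDA1 for pH 6.4 against pH 6.9.

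FOSL1 (ENSG00000175592, chromosome 11 from 65892049 to 65900573, minus strand, GRCh38) codes for a FOS-family protein that lacks the strong transactivation domain of FOS. In repeats 1 to 4 it had 142, 148, 200 and 235 CPM at pH 7.4, then 216, 230, 238 and 309 CPM at pH 6.9, and 306, 393, 338 and 526 CPM at pH 6.4. Every pH 6.4 library lay above every pH 7.4 library, and repeat 4 was the highest library in each medium. The log2 change of pH 6.4 over pH 7.4 was 1.11 (SE 0.19, adjusted p = 0.000637). It was 0.93 to 1.28 over 23 other settings, all of which called it. Between repeats of the same number the log2 ratio was 1.11, 1.41, 0.76 and 1.16.

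FOS (ENSG00000170345, chromosome 14 from 75278774 to 75282230, plus strand) had 65, 58.6, 43.8 and 35.1 CPM at pH 7.4, then 46.2, 36.7, 26.9 and 32.5 CPM at pH 6.9, and 28.7, 56.4, 18.1 and 26.3 CPM at pH 6.4. Repeat 2 at pH 6.4 stood among the pH 7.4 values, and the other 3 pH 6.4 libraries lay below all of them. Its log2 change of -0.64 (SE 0.29) did not pass for pH 6.4 against pH 7.4 (adjusted p = 0.106). Without repeat 2 at pH 6.4 it passed with -1.06 (adjusted p = 0.00541), and with the repeat block it passed with -0.70 (adjusted p = 0.0135). The ratio was below 1 within all 4 repeat numbers, at log2 values of -1.18, -0.05, -1.27 and -0.42.

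FOSB, which is induced like FOS but can persist as a truncated form, was scarce, at 4.67, 4.63, 3.44 and 2.36 CPM at pH 7.4, then 5.49, 3.19, 1.55 and 2.47 CPM at pH 6.9, and 2.61, 7.12, 1.44 and 2.26 CPM at pH 6.4. The media overlapped throughout, and repeat 2 at pH 6.4 was the highest of the 12 libraries. Its log2 change of pH 6.4 over pH 7.4 was -0.16, with a 95% interval of -1.13 to 0.81 (adjusted p = 0.826). FOSL2, the FRA-2 gene, had 151, 153, 174 and 161 CPM at pH 6.4 and 168, 170, 203 and 196 CPM at pH 7.4. The ranges overlapped, but within each repeat number the pH 6.4 library was the lower. The log2 change was -0.20 (SE 0.11, adjusted p = 0.196), which passed with the repeat block (-0.20, adjusted p = 0.0265).

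Within the FOS family the make-up of the mRNA pool, by CPM per kb, differed between the media. At pH 7.4 FOSL1 took 68.8% ± 6.2 of the summed level of the 4 genes, at pH 6.9 its share was 78.6% ± 3, and at pH 6.4 it reached 85.9% ± 2.8 (SD, n = 4). The pH 6.4 libraries spanned 83.8% to 90.0% and the pH 7.4 libraries 62.9% to 76.3%, so they did not overlap. FOS took 11.9% ± 4.8, 6.73% ± 2.11 and 4.23% ± 2.08 in the same order of media, and FOSL2 took 18.8% ± 1.4, 14.3% ± 2.5 and 9.62% ± 2.02 (SD, n = 4). The FOS shares overlapped between pH 6.4 (up to 7.02%) and pH 7.4 (from 6.65%). Those of FOSL1 overlapped between pH 6.9 (from 75.5%) and pH 7.4 (up to 76.3%). FOSB stayed under 1% in every library. Without division by length FOSL1 had 42.7%, 54.1% and 66.0% of the family's counts, still in the same order of media. FOSL2 then had 43.99%, 37.23% and 27.84%, so at pH 7.4 it stood slightly above FOSL1 by that measure. These shares describe mRNA, are tied to each other because they sum to the whole, and were not tested.

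**Figure D3:**
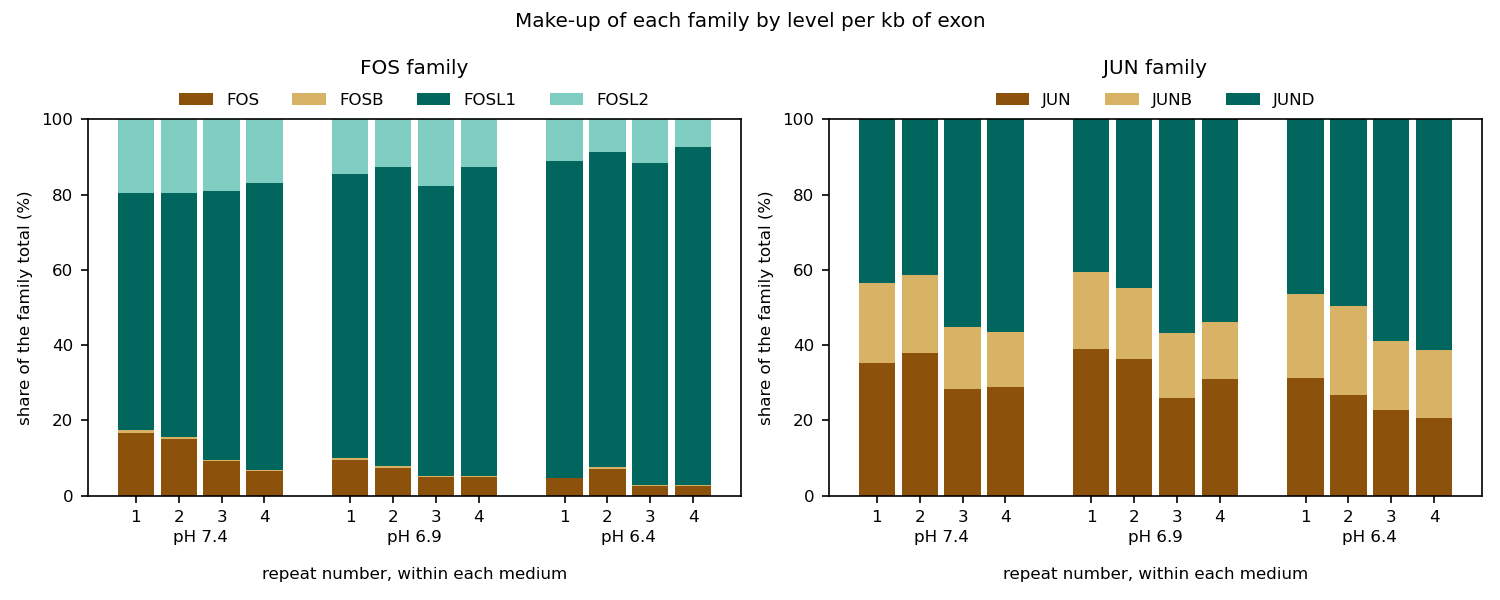
Share (%) of each gene in the summed CPM per kb of its family, in every library, by medium from pH 7.4 to pH 6.4 and by repeat number. FOSL1 ran from 83.8% to 90.0% at pH 6.4 and from 62.9% to 76.3% at pH 7.4. By CPM per kb JUND had the largest share of the JUN family on average in each medium. Without division by length JUN had the largest share at pH 7.4 and pH 6.9.

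Of the JUN family, none of the 3 genes passed for pH 6.4 against pH 7.4. JUN (ENSG00000177606, chromosome 1 from 58780788 to 58784327, minus strand), the main transactivating partner of FOS, had 97.3, 108, 124 and 140 CPM at pH 6.4 and 103, 119, 148 and 146 CPM at pH 7.4. Within each repeat number pH 6.4 was the lower, although the ranges overlapped, and the log2 change was -0.14 (SE 0.14, adjusted p = 0.481), or -0.14 with the block (adjusted p = 0.0639). JUNB (chromosome 19 from 12791496 to 12793315, plus strand), which can dampen the activity of JUN, had 35.5, 49.4, 51.1 and 63.5 CPM at pH 6.4 and 31.7, 33.6, 44.6 and 37.4 CPM at pH 7.4. All but the first of the pH 6.4 libraries lay above the pH 7.4 range.

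The JUNB log2 change was 0.44 (SE 0.17, adjusted p = 0.0650). It passed without repeat 1 at pH 6.4 (0.58, adjusted p = 0.0162), without repeat 3 at pH 7.4 (0.54, adjusted p = 0.0431), by DESeq2 (0.45, adjusted p = 0.0377) and with the repeat block (0.43, adjusted p = 0.00620). JUNB shares 259 exonic bases with HOOK2 on the other strand. With the strand setting not given in the sources used here, its reads and those of HOOK2 there cannot be told apart.

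JUND (ENSG00000130522, chromosome 19 from 18279760 to 18281622, minus strand), the JUN gene that resting cells express most steadily, parted by repeat number. It had 66.8, 68.3, 152 and 150 CPM at pH 7.4, then 68.2, 83.2, 169 and 150 CPM at pH 6.9, and 75.9, 106, 169 and 218 CPM at pH 6.4. In every medium both repeats 3 and 4 lay above both repeats 1 and 2, by log2 values of 1.16 at pH 7.4, 1.08 at pH 6.9 and 1.10 at pH 6.4. FOS and FOSB ran the other way, with repeats 3 and 4 lower than repeats 1 and 2 by log2 values of -0.88 and -1.24 at pH 6.4, and -0.66 and -0.70 at pH 7.4. The median gene moved by at most 0.04 between these pairs of repeats. JUND stood at percentile 89.5 of all tested genes for this difference at pH 7.4, 96.5 at pH 6.9 and 97.6 at pH 6.4.

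The JUND transcript has a GC content of 69.7%, at percentile 99.7 of 17334 tested genes with a value, and JUNB has 64.9%. The tenth of genes with the highest GC differed between the same pairs of repeats by a median log2 of 0.23 to 0.25 over the media, and the tenth with the lowest by -0.03 to 0.10. The part of GC content in the values of JUND was not tested. Without the block, the JUND log2 change of pH 6.4 over pH 7.4 was 0.38 (SE 0.37, adjusted p = 0.475). Within repeat numbers the log2 ratios were 0.18, 0.63, 0.15 and 0.55, and with the repeat block the change passed at 0.38 (SE 0.09, adjusted p = 0.00453). In the make-up of the JUN family, JUND took 49.1% ± 7.9, 49% ± 7.6 and 54% ± 7.1 in the order pH 7.4, pH 6.9 and pH 6.4, and JUN 32.6% ± 4.8, 33.1% ± 5.8 and 25.4% ± 4.7 (SD, n = 4), all with overlapping ranges between media. Without division by length JUN led at pH 7.4 and pH 6.9, with 47.95%, 48.43% and 39.21% of the family's counts in that order of media. JUND then had 38.28%, 38.08% and 44.36%. Within repeat numbers the share of JUND by CPM per kb was higher at pH 6.4 than at pH 7.4 in 4 of 4 pairs. That of JUN was lower in 4 of 4, and these shares were not tested.

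**Figure D4:**
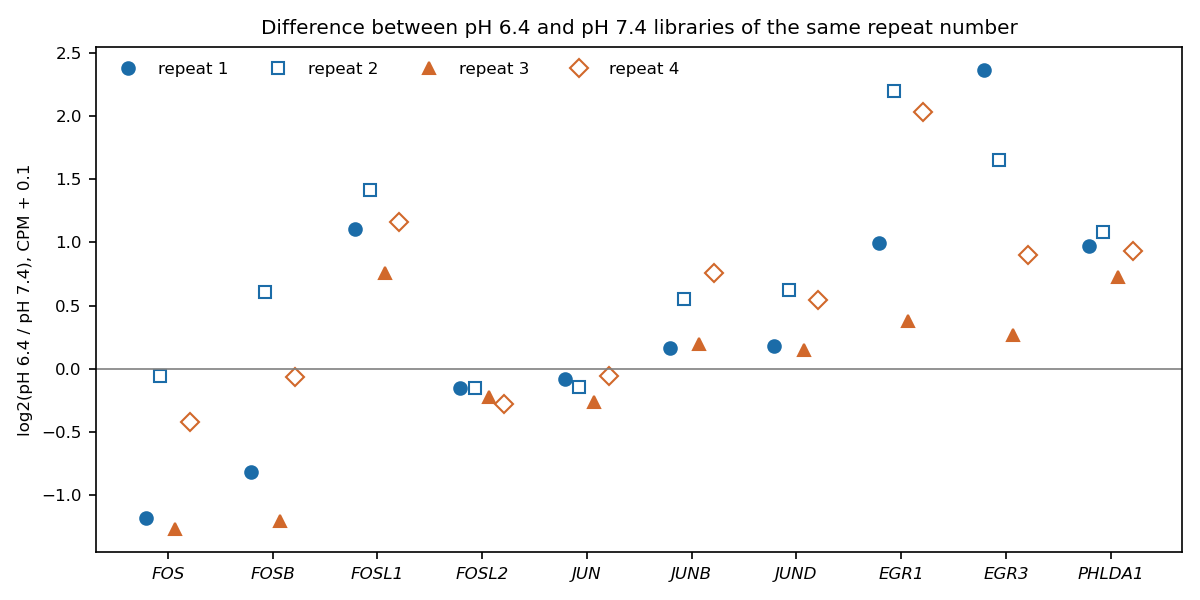
Log2 ratio of the pH 6.4 library to the pH 7.4 library of the same repeat number, for each gene, computed from CPM with 0.1 added (vertical axis, log2 scale, 1 marker per repeat). FOSL1, JUNB, JUND, EGR1, EGR3 and PHLDA1 lay above 0 in 4 of 4 repeats. FOS, FOSL2 and JUN lay below 0 in 4 of 4, while FOSB lay on both sides. How many of all tested genes kept the same sign over the repeats was not counted. The signs are therefore not shown to be particular to these genes.

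EGR1 (ENSG00000120738, chromosome 5 from 138465490 to 138469315, plus strand), whose protein activates growth and stress genes through GC-rich sites, had 10.9, 7.82, 13.6 and 6.27 CPM at pH 7.4, then 22.5, 7.86, 19.0 and 18.1 CPM at pH 6.9, and 21.8, 36.2, 17.8 and 26.0 CPM at pH 6.4. Every pH 6.4 library exceeded every pH 7.4 library, and repeat 2 at pH 6.9 stayed within the pH 7.4 range. The log2 change of pH 6.4 over pH 7.4 was 1.41 (SE 0.31, adjusted p = 0.00377). It passed in 22 of 23 other settings, with 1.18 to 1.65, and missed the threshold in repeats 3 and 4 alone (1.18, adjusted p = 0.0745). Repeat 3 had the smallest ratio of the 4 repeats (0.38 on the log2 scale) and repeat 2 the largest (2.20).

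EGR3, a relative that calcium signalling can induce, was close to the limit of detection. It had 17, 31, 8 and 11 reads in the pH 6.4 libraries, which is 0.41, 0.67, 0.19 and 0.38 CPM, and 0, 7, 3 and 7 reads in the pH 7.4 libraries, which is 0, 0.14, 0.14 and 0.16 CPM. The groups did not overlap, but the lowest pH 6.4 library and the highest pH 7.4 library were only 0.188 and 0.156 CPM. EGR3 passed the filter on low counts only through libraries at pH 6.9 and pH 6.4. The log2 change of 1.87 (SE 0.73, adjusted p = 0.0668) missed the threshold. DESeq2 called it (1.91, adjusted p = 0.0379), as did the fit without repeat 3 at pH 6.4 (2.11, adjusted p = 0.0482). It shares 164 exonic bases with a transcript on the other strand.

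PHLDA1 (ENSG00000139289, chromosome 12 from 76025447 to 76033932, minus strand), whose protein binds phosphoinositides and can restrain receptor tyrosine kinase and AKT signalling, stood second of the 10 by CPM per kb at pH 6.4. In CPM it had 337, 428, 403 and 404 CPM at pH 7.4, then 476, 535, 515 and 561 CPM at pH 6.9, and 660, 905, 665 and 770 CPM at pH 6.4. The 3 media did not overlap at all. The log2 change of pH 6.4 over pH 7.4 was 0.93 (SE 0.11, adjusted p = 5.88e-05) and passed in all 23 other settings, with 0.83 to 1.04. Antisense genes share 553 and 779 of its 8069 exonic bases.

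Repeat 2 at pH 6.4 was the highest library of its medium for FOS, FOSB, EGR1, EGR3 and PHLDA1, and repeat 3 was the lowest for FOS, FOSB, EGR1 and EGR3. Among the 10 genes the spread at pH 6.4, as SD over mean, ran from 6.52% for FOSL2 to 76.2% for FOSB, with 51.5% for FOS. Leaving out the 2 libraries with the fewest genes kept the count of calls at 3 of 10 for pH 6.4 against pH 7.4. The log2 changes were then 1.01 for FOSL1, 1.49 for EGR1 and 0.87 for PHLDA1.

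In the milder acid medium none of the 10 genes passed, and PHLDA1 came nearest. This comparison of pH 6.9 with pH 7.4 asked whether the same genes moved with less acid, and it shares its pH 7.4 libraries with the first comparison. Of all tested genes edgeR called 0.724%, which is 0.313% higher and 0.410% lower. At an unadjusted p under 0.05 edgeR counted 3 of the 10 (FOSL1, EGR1 and PHLDA1), against 11.9% of all genes. DESeq2 called 1 of the 10, PHLDA1, beside 559 of all genes. PHLDA1 averaged 521.8 ± 35.8 CPM at pH 6.9 and 392.9 ± 39.4 CPM at pH 7.4 (SD, n = 4), a log2 change of 0.41 (SE 0.11, adjusted p = 0.108). It was the 1 gene of the 10 whose libraries did not overlap, where 5.18% of all genes were higher without overlap. The PHLDA1 change passed without a filter on low counts (adjusted p = 0.0352), by DESeq2 (adjusted p = 0.0236) and when pH 7.4 and pH 6.9 were fitted alone (adjusted p = 0.0424). FOSL1 had a log2 change of 0.46 (95% interval 0.06 to 0.85, adjusted p = 0.326) and EGR1 of 0.82 (0.16 to 1.48, adjusted p = 0.284). FOS averaged 35.6 ± 8.14 CPM at pH 6.9 and 50.6 ± 13.7 CPM at pH 7.4 (SD, n = 4), with a log2 change of -0.51 and a 95% interval of -1.12 to 0.11.

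Between the acid media FOSL1 and PHLDA1 were higher at pH 6.4. At pH 6.4 FOSL1 averaged 390.9 ± 97.1 CPM and at pH 6.9 it averaged 248.4 ± 41.7 CPM (SD, n = 4), a log2 change of 0.65 (SE 0.18, adjusted p = 0.0274). PHLDA1 averaged 750.0 ± 115.3 CPM at pH 6.4 and 521.8 ± 35.8 CPM at pH 6.9 (SD, n = 4), a log2 change of 0.52 (SE 0.11, adjusted p = 0.00728). The 2 higher genes of 10 stand beside 8.83% of all tested genes called higher and 8.20% called lower, 17.0% in all, and the 1 gene without overlap, PHLDA1, beside 9.64% of all genes. With library size in place of TMM, 38.2% of all calls were higher in place of 51.9%.

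The FOSL1 difference between pH 6.4 and pH 6.9 was close to the threshold. Its call was lost without repeat 1 (0.59, adjusted p = 0.0836), repeat 2 (0.62, adjusted p = 0.0688) or repeat 3 (0.63, adjusted p = 0.0739) at pH 6.9. The same held without repeat 2 (0.65, adjusted p = 0.0676) or repeat 4 (0.47, adjusted p = 0.111) at pH 6.4, and without any filter (0.66, adjusted p = 0.129). With the repeat block it was 0.64 (adjusted p = 0.000746), and the block counted 4 of the 10 genes higher and 1 lower, against 16.1% and 15.0% of all genes. Those it added were JUNB (0.33, adjusted p = 0.0326), JUND (0.27, adjusted p = 0.0377) and, lower at pH 6.4, JUN (-0.27, adjusted p = 0.00399). EGR1 had a log2 change of 0.59 with a 95% interval of -0.05 to 1.24 (adjusted p = 0.197). Set against the midpoint of the outer media on the log2 scale, the pH 6.9 level passed for none of the 10 genes and none of all 17544 by edgeR. At an unadjusted p under 0.05 edgeR counted 0 of the 10 and 2025 of all genes, and DESeq2 called 102 of all genes.

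The surrounding pathway was described through lists of genes by role, each compared between pH 6.4 and pH 7.4 with the same fit. In that fit 15.6% of all genes were higher and 14.7% lower. With the repeat block 21.4% of all genes were higher and 20.2% lower, and the block counts below stand beside those shares. Of 12 tested bZIP genes that can pair with FOS or JUN proteins, 5 were higher and none lower, with a median log2 change of 0.27. CREB5 averaged 14.4 CPM at pH 6.4 and 4.05 CPM at pH 7.4 (log2 1.83, adjusted p = 4.60e-05). The stress-induced ATF3 averaged 18.0 CPM at pH 6.4 and 5.73 CPM at pH 7.4 (log2 1.64, adjusted p = 0.000372), and the small MAF factor MAFF rose by 1.09 on the log2 scale. Of 4 tested relatives and corepressors of EGR factors 1 was higher, NAB1, which binds EGR1 and restrains it (log2 0.52, adjusted p = 0.00156). It was 2 with the repeat block, and 2 when a pH 7.4 library (repeat 1 or 4) or repeat 3 of the pH 6.4 libraries was left out.

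Upstream of the immediate early genes, 1 of 6 genes of serum response factor and its partners was higher and 1 lower, or 4 and 1 with the repeat block. The ETS partner ELK4 averaged 151 CPM at pH 6.4 and 72.0 CPM at pH 7.4 (log2 1.07, adjusted p = 0.000191), and the actin-regulated coactivator MRTFB fell by 0.70 on the log2 scale (adjusted p = 0.00249). Of 17 MAP kinases and their activating kinases, 4 were higher and 2 lower, with a median of 0.11. MAP2K6, which activates p38, averaged 1.34 CPM at pH 6.4 and 5.21 CPM at pH 7.4 (log2 -1.95, adjusted p = 0.0105), while MAP2K5 and the ERK-activated kinase gene RPS6KA3 rose by 0.48 and 0.43 on the log2 scale. The number of lower kinases was 1 to 3 when single libraries were left out, and at least 8 of the 12 libraries moved it.

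Of 9 tested MAP kinase phosphatases, which switch these kinases off, 5 were higher and 1 lower, with a median log2 change of 0.68. DUSP5, specific for nuclear ERK, averaged 105 CPM at pH 6.4 and 44.8 CPM at pH 7.4 (log2 1.23, adjusted p = 0.00283). DUSP16, which acts on JNK, rose by 0.91, and DUSP10, which acts on p38 and JNK, fell by 0.83 on the log2 scale (adjusted p = 0.000114). Of 27 other immediate early genes, 5 were higher and 3 lower, with a median of 0.18. With the repeat block 9 were higher and 5 lower, beside 21.4% and 20.2% of all genes. The matricellular CCN2 averaged 667 CPM at pH 6.4 and 319 CPM at pH 7.4 (log2 1.06, adjusted p = 0.000181), and MYC and IER3 rose by 0.85 and 0.66. The number of lower genes was 1 to 3 when single libraries were left out. It moved at least when repeat 3 or 4 of the pH 7.4 libraries or repeat 1 or 2 of the pH 6.4 libraries was omitted.

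The short-lived mRNAs of FOS and EGR1 carry AU-rich elements that ZFP36 proteins bind to hasten decay. Of 8 genes for proteins that bind such elements, 3 were higher and none lower (1 lower with the repeat block), with a median of 0.05. ZFP36 averaged 44.2 CPM at pH 6.4 and 21.7 CPM at pH 7.4 (log2 1.03, adjusted p = 0.00407), ZFP36L1 rose by 0.81, and TIAL1, which represses translation, by 0.40 on the log2 scale. Of 5 other pleckstrin homology-like domain genes, 2 were higher and 1 lower (2 lower with the block), with a median of -0.23. PHLDB3 and PHLDB2 rose by 0.76 and 0.40, and PHLDB1 fell by 0.64 on the log2 scale. The number of higher ones was 1 or 2 when single libraries were left out, and 7 of the 12 libraries moved it.

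Of 22 tested genes reported elsewhere as AP-1 targets, 13 were higher and 2 lower at pH 6.4, with a median log2 change of 0.69. AREG, an EGF receptor ligand, averaged 258 CPM at pH 6.4 and 43.2 CPM at pH 7.4 (log2 2.58, adjusted p = 4.32e-07). The collagenase gene MMP1 averaged 14.2 CPM at pH 6.4 and 4.37 CPM at pH 7.4 (log2 1.69, adjusted p = 0.0300). Its libraries overlapped, at 5.84 to 24.3 CPM at pH 6.4 and 1.61 to 7.23 CPM at pH 7.4. In each medium repeats 3 and 4 of MMP1 lay below repeats 1 and 2. CCND1 and HBEGF were the lower ones, with log2 changes of -0.38 and -0.25. With single libraries left out, 10 to 13 were higher and 1 to 3 lower. The number of lower genes was 1 when the pH 7.4 repeat 4 or the pH 6.4 repeat 1 library was omitted. With the repeat block 14 were higher and 3 lower, beside 21.4% and 20.2% of all genes. The list was assembled with results of these libraries known, so its direction is not independent evidence. For pH 6.4 against pH 6.9, 9 of the 22 were higher and 3 lower, beside 8.83% and 8.20% of all genes. For pH 6.9 against pH 7.4, 1 was higher and none lower, beside 0.313% and 0.410% of all genes.

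**Figure D5:**
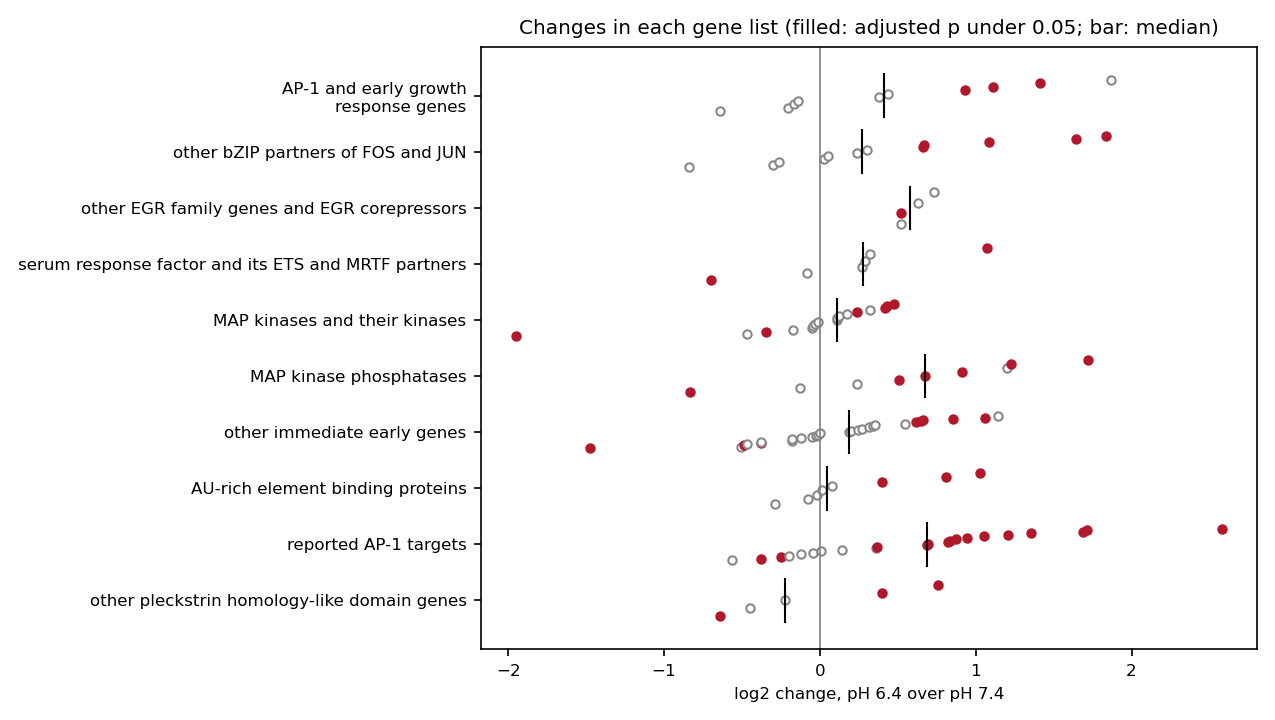
Log2 change of pH 6.4 over pH 7.4 (horizontal axis, log2 scale) for each tested gene of the 10 AP-1 and early growth response genes and of 9 lists by role, 1 point per gene, filled where the adjusted p was under 0.05, with a bar at the median. Reported AP-1 targets and MAP kinase phosphatases had medians of 0.69 and 0.68, against -0.0008 over all genes.

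For the 3 genes with the largest changes at pH 6.4, the genes with the most similar profile over the 12 libraries were found by the root mean square difference of log2 CPM, each gene centred on its mean, among 10516 genes with at least 5 CPM in every medium. FOSL1 was tracked closely, at differences of 0.137 for NOTCH1, 0.148 for FAM131A, 0.157 for RNF44, 0.160 for SLC1A5 and 0.162 for NFIB, beside an SD of 0.53 for FOSL1 itself. For EGR1, with an SD of 0.74, SH3BP5-AS1, P2RY11, HIPK2 and BBC3 were among the nearest, at 0.440 to 0.459. For EGR3, with an SD of 0.97, they were PLXNB1, ZNF461, SOCS7, ZNF805 and RBM43, at 0.523 to 0.580. These points share libraries and depth, so the order is a description.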

How the data were processed

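Per the labels' protocols, a stranded TruSeq kit for poly(A) RNA and a NextSeq500 sequencer were used. The authors deposited 1 table of unnormalized counts per gene. The submitters' processing notes name STAR, featureCounts and the build GRCh38.p13 (hg38). The sources used here do not give versions, the strand setting or the handling of multi-mapping reads, so overlapping genes are uncertain. The tools were edgeR 4.0.16, DESeq2 1.42.0 and limma 3.58.1 under R 4.3.3. Genes were filtered with filterByExpr and scaled with TMM. All 12 libraries entered 1 fit with a term for each medium, which left 9 residual degrees of freedom. The robust quasi-likelihood test of edgeR was adjusted by Benjamini-Hochberg over 17544 genes, with calls under 0.05. SEs and intervals of log2 changes come from that fit. CPM uses the TMM-scaled library sizes. Rows with no gene symbol held up to 0.424% of a library's counts. Coordinates and exon lengths are from GENCODE for GRCh38. No 2 libraries were copies, since at least 22391 genes differed in each of 66 pairs. The intervals cover the spread between libraries, and the limit that a count of 0 allows covers counting error only.

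The repeat numbers were taken as pairs where every same-numbered correlation of deviations from the medium's mean was over 0.1. It was 0.113 to 0.262 for pH 6.4 against pH 7.4, 0.264 to 0.471 for pH 6.4 against pH 6.9, and 0.0798 to 0.352 for pH 6.9 against pH 7.4, where pairing was not taken. In both comparisons with pH 7.4, repeat 1 at the lower pH correlated more with another repeat number than with its own (0.214 against 0.113 for pH 6.4, and 0.247 against 0.0798 for pH 6.9).

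The 10 genes, the lists, the tests and the alternatives were chosen with earlier results of these data known. From each list the text names up to 3 called genes with at least 5 CPM in the higher medium, by size of change. CCND1 and HBEGF were named after their values were seen. Some genes that these rules name are not reported here.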

Additional observations from a re-analysis of the deposited data

Results flagged for a closer look

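EGR3 in repeat 1 at pH 7.4 had 0 reads (0 CPM), apart from the other 3 pH 7.4 libraries at 0.14 to 0.16 CPM. Its gap to the nearest of them was 0.895 of the group's whole range, beyond Dixon's critical value. A count of 0 allows up to 3 reads there, which is 0.0871 CPM, so the difference rests on a few reads. That library also held the fewest genes with a count, 17841, and the part of this in the EGR3 value was not tested. It was the 1 case among 30 groups of 4 libraries (10 genes in 3 media), and chance gives such a gap in about 1 of 20 groups.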

How the results depend on the processing

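FOSL1 and PHLDA1 kept their call for pH 6.4 against pH 7.4 in all 23 other settings, and EGR1 in 22. Of all genes the main fit called 5321 there, the replicate block 7290 and DESeq2 6123. The number of the 10 genes called was 7 with that block, 5 by DESeq2 and 3 to 4 when single libraries were left out. The counts by DESeq2 and without repeat 3 at pH 6.4 include EGR3. EGR3 met the filter on low counts only through acid libraries, so it adds no support to those counts. For pH 6.4 against pH 6.9 it was 5 with the block, 1 without a filter, 1 without the 2 libraries with the fewest genes, 0 in repeats 3 and 4 alone and 1 to 2 when single libraries were left out. PHLDA1 missed the threshold there in repeats 3 and 4 alone (0.43, adjusted p = 0.213). For pH 6.9 against pH 7.4 it was 2 with the block (FOSL1 at 0.47, adjusted p = 0.00936, and PHLDA1 at 0.41, adjusted p = 0.00433), 1 without a filter, 1 by DESeq2, 1 with only those media, and 0 whichever single library was left out. Pairing was not taken for pH 6.9 against pH 7.4, where the same-numbered correlation of repeat 1 was 0.0798. The block values of that comparison therefore add no support. Repeat 1 did not correlate best with its own number in either comparison with pH 7.4. For the midpoint the number of the 10 genes called was 0 in each.

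Among all genes, pH 6.4 against pH 7.4 gave 5321 calls, 3795 to 6411 with single libraries left out and 1528 in repeats 3 and 4 alone. For pH 6.4 against pH 6.9 it gave 2988, or 1171 to 4944 with single libraries left out, 5456 with the block, 1906 in repeats 1 and 2 and 0 in repeats 3 and 4. For pH 6.9 against pH 7.4 it gave 127, or 39 to 306 with single libraries left out, 201 without a filter and 559 by DESeq2. It gave 250 with only those media, 20 without the 2 libraries with the fewest genes, 7 in repeats 1 and 2 and 0 in repeats 3 and 4. With the block it gave 947, although pairing was not taken in that comparison. For the midpoint it gave 0, or 13 without a filter, 102 by DESeq2 and 0 to 1109 with single libraries left out, the most without repeat 3 at pH 6.4. The fits on single pairs of repeats hold fewer samples, and for the rest the cause was not tested.

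Some small uncalled log2 changes reversed. FOSB for pH 6.4 against pH 6.9 was 0.073, and became -0.031 by library size, -0.011 with the replicate block, -0.10 by limma-voom and -0.14 in repeats 3 and 4, with -0.61 (without repeat 2 at pH 6.4) to 0.47 when single libraries were left out. For pH 6.4 against pH 7.4 FOSB became 0.075 in repeats 1 and 2 and ran from -0.85 to 0.094 (without repeat 3 at pH 6.4) with single libraries left out. For pH 6.4 against pH 6.9 in repeats 1 and 2, FOS became 0.042 and FOSL2 0.050. With single libraries left out, FOS ran there from -0.55 to 0.062, FOSL2 from -0.18 to 0.015 and JUND from -0.011 to 0.50. For pH 6.9 against pH 7.4 JUND ran from -0.11 to 0.31 and JUNB from -0.013 to 0.21. The stricter filter removed EGR3, so it has no value there. Low counts limit EGR3 and FOSB.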
